A study of Homo sapiens with 6 samples.

Results

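The dual-specificity MAP kinase phosphatases *DUSP1*, *DUSP2*, *DUSP4*, *DUSP5*, *DUSP6*, *DUSP7*, *DUSP8*, *DUSP9*, *DUSP10* and *DUSP16* were examined in breast cancer cells that overexpressed the circular RNA *circAAGAB*. They were chosen by gene symbol, 10 of the 17687 genes that the array annotation named, and each had 1 named probe set. MDA-MB-231 cells, an established human line of triple-negative breast cancer grown in medium with serum, were transfected with a pCIRC2T7 plasmid that carries *circAAGAB* or with the empty control plasmid. Total RNA was taken 24 h later, and 3 Clariom S arrays were hybridised in each group. The transfection was transient, the cells were of 1 line, and whether the arrays of a group came from separate cultures is not stated (the methods speak of independent experiments for quantitative data in general, without naming the arrays), so the p-values measure the spread between these arrays, which may be technical. The comparison asks which genes differ when this circular RNA is abundant. All values below are log2 signals after robust multichip averaging, all differences are *circAAGAB* overexpression minus empty vector, and a difference of 1 is a 2-fold change.

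MAP kinases are switched on when a MAP kinase kinase phosphorylates a threonine and a tyrosine in their activation loop, and the dual-specificity phosphatases switch them off by removing both phosphates. Inducible nuclear members (*DUSP1*, *DUSP2*, *DUSP4*, *DUSP5*) are made quickly after growth factors or stress, cytoplasmic members (*DUSP6*, *DUSP7*, *DUSP9*) prefer ERK, and *DUSP8*, *DUSP10* and *DUSP16* prefer the stress-activated kinases p38 and JNK. Many of these genes are themselves transcribed in response to the kinases that their products inactivate, which makes them negative feedback regulators. Their mRNA gives no measure of the phosphatase activity, and no protein was measured on these arrays.

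*AAGAB*, the gene whose exons the plasmid carries, was at 7.71, 7.56 and 7.73 on the empty vector arrays and at 10.97, 11.75 and 11.11 on the *circAAGAB* arrays. It rose by 3.61 (SE 0.22, adjusted p = 0.00319, limma with Benjamini-Hochberg adjustment over 21448 probe sets), and its probe set does not tell circular from linear RNA. No other probe set passed an adjusted p of 0.05, and the next smallest adjusted p by limma was 0.478. *AAGAB* alone thus made up the 0.00466% of all probe sets that passed. The median over all probe sets was -0.0017, and 49.6% of them were higher. Arrays of the same replicate number resembled each other, and over all probe sets the replicate number held a median of 60.4% of the variance and the group 8.31%. The replicate number has more degrees of freedom than the group, and these shares do not count that. Background was gauged from 348 olfactory receptor genes, whose mean signals had a 95th percentile of 4.65, and all 10 phosphatase genes had means above it. Of the markers fixed for this line, 6 of 6 mesenchymal genes were above the gauge, as were 3 of 7 luminal genes (*KRT19*, *EPCAM* and *GATA3*), 1 of 4 blood cell genes (*CD14*) and 2 of 4 fibroblast genes (*COL1A1* and *COL1A2*). The defining blood and fibroblast markers *PTPRC* and *DCN* were below it.

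Among the phosphatases, the largest difference was that of *DUSP1*, which encodes the nuclear phosphatase MKP-1 that acts on p38, JNK and ERK. The second was that of *DUSP10*, which encodes MKP-5, a phosphatase of p38 and JNK. Both were higher on every *circAAGAB* array than on any empty vector array, *DUSP1* by 0.68 (1.60-fold) and *DUSP10* by 0.36 (1.28-fold). The other 8 genes had differences between -0.16 and 0.18 with overlapping groups, 4 higher and 4 lower. None of the 10 passed an adjusted p of 0.05 (limma). At an unadjusted p under 0.05, 2 were higher and 0 lower, where 2.18% of all probe sets passed, 1.19% being higher and 0.988% lower.

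**Figure D1:**
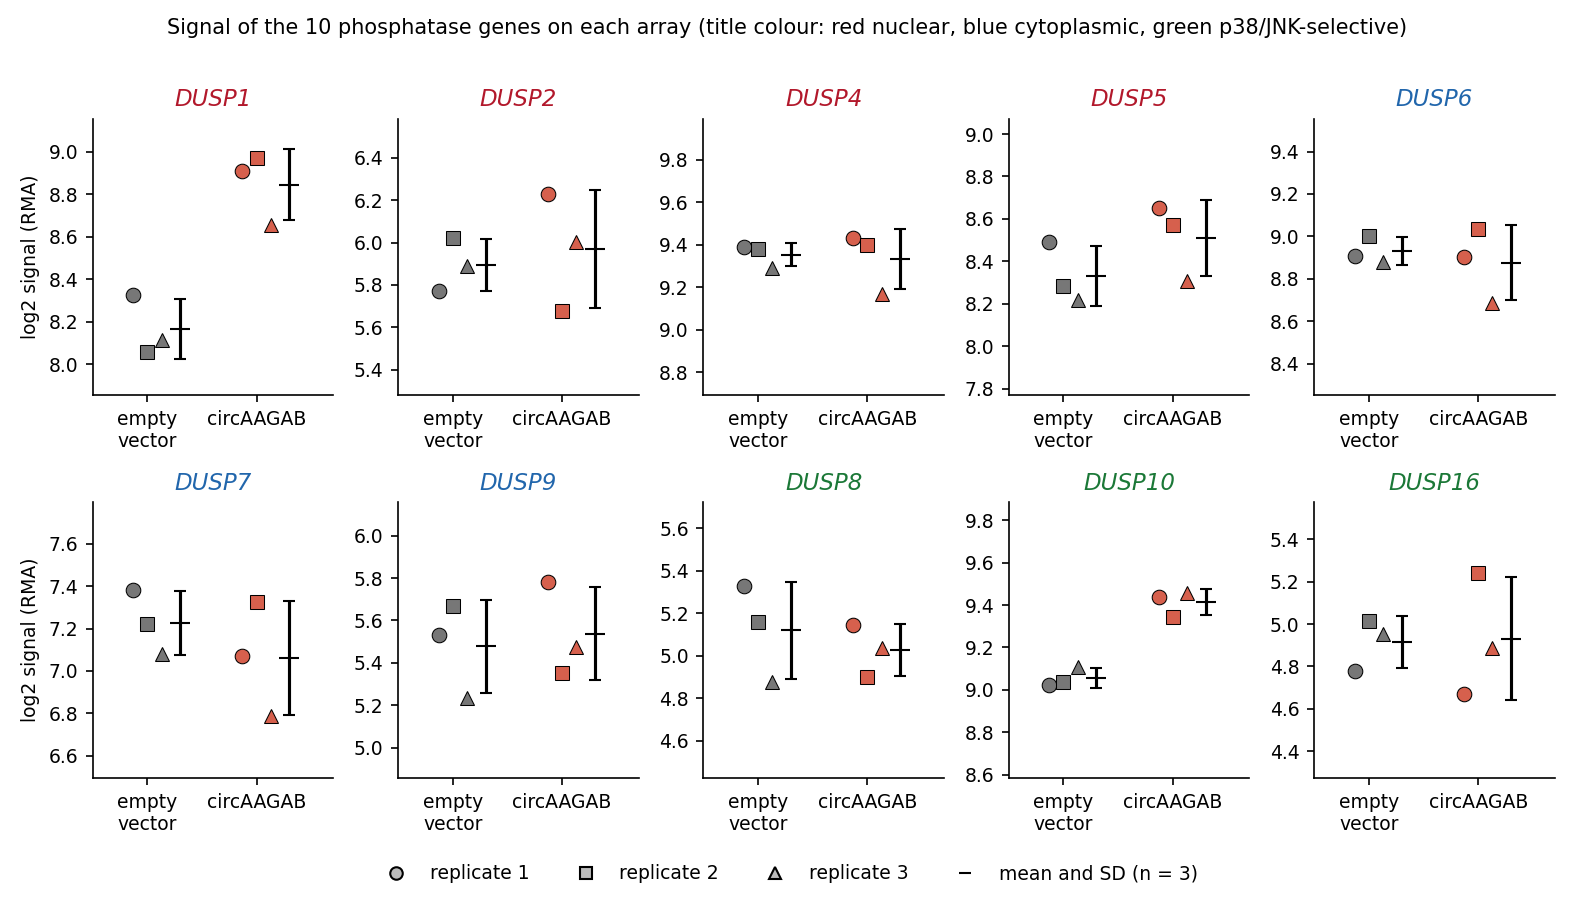
The log2 signal of each phosphatase gene on the 3 empty vector arrays (grey) and the 3 *circAAGAB* arrays (red), with the symbol giving the replicate number and the bar the mean and SD of each group; every panel spans the same range of signal. The groups are apart in *DUSP1* and *DUSP10* and overlap in the other 8 genes.

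The promoters of 3 members are shown because *DUSP1* and *DUSP10* had the largest differences, and because *DUSP8*, which holds the same element as *DUSP1*, had no such difference. They are the 250 bases before the start site in RefSeq on GRCh38.p14, 5′ to 3′ on the strand of the gene, at chr5:172771196-172771445 (minus strand) for *DUSP1*, chr11:1572272-1572521 (minus strand) for *DUSP8* and chr1:221742090-221742339 (minus strand, the outermost start) for *DUSP10*. Capitals mark the cAMP response element (CRE) TGACGTCA, bound by the CREB and ATF family, and its core TGACG on either strand.
DUSP1: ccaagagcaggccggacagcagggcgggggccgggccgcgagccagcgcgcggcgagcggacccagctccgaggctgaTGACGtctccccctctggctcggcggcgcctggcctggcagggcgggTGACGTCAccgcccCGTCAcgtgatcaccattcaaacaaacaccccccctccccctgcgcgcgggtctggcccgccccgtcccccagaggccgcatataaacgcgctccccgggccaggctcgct
DUSP8: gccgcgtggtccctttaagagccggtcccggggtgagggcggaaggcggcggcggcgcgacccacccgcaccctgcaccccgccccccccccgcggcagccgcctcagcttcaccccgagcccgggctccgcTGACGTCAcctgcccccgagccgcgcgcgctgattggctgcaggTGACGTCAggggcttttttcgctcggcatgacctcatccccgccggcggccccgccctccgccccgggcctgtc
DUSP10: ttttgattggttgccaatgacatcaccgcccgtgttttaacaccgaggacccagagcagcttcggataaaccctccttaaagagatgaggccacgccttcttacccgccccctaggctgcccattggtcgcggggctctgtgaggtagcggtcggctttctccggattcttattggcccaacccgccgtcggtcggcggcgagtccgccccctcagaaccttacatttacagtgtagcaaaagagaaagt

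The *DUSP1* window held 1 full CRE, which began 125 bases before the start site, 2 further cores at 172 and 111 bases and a TATAAA box at 30 bases. The *DUSP8* window held 2 full CREs, at 118 and 74 bases. The mean signal of *DUSP8* was 5.07, near the background gauge of 4.65, which limits what can be read from its difference. Whether the element bears on the difference of either gene was not tested. Neither *DUSP10* window, that shown or that of its inner start site, held the element, its core or any other motif searched. Both strands were searched in 35116 promoters, of which 1.65% held TGACGTCA, 0.0541% held it at least 2 times, 21.2% held TGACG (each full element holds the core on both strands) and 10.7% held TATAAA. Promoters were found for 8 of the 10 members, and *DUSP4* and *DUSP5* had no entry. In the others the only matches were to the EGR motif GCGNGGGCG, 2 in *DUSP2* and 1 in *DUSP16*, which 8.41% of all promoters held. The AP-1 motif TGANTCA, the CArG box and the ETS motif CCGGAA were in none of the 8, against 6.57%, 1.16% and 14.5% of all promoters. These are matches of letters in a short window, and no binding was measured here.

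Of the nuclear phosphatases, *DUSP1* was at 8.32, 8.06 and 8.11 on the empty vector arrays of replicates 1, 2 and 3 and at 8.91, 8.97 and 8.65 on the *circAAGAB* arrays. The lowest *circAAGAB* array, replicate 3, was still above the highest empty vector array, replicate 1. The means were 8.16 ± 0.14 and 8.84 ± 0.17 (SD, n = 3 each), a difference of 0.68 with a 95% interval of 0.32 to 1.04. By limma the unadjusted p was 0.00254, the 12th smallest of all probe sets, and the adjusted p was 1.00. The exact permutation test gave p = 0.1 (two-sided), the smallest that 3 arrays against 3 allow. Within the replicate numbers the difference was 0.58, 0.91 and 0.54, and with any 1 array left out it lay between 0.62 and 0.77. In bulk RNA a response in a part of the cells, such as those that took up the plasmid, and a smaller response in all of them cannot be told apart.

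*DUSP5*, a nuclear phosphatase of ERK, was at 8.49, 8.28 and 8.22 with the empty vector and at 8.65, 8.57 and 8.31 with *circAAGAB*. It was higher within every replicate pair, by 0.16, 0.29 and 0.09, but the groups overlapped, since the highest empty vector array was above the lowest *circAAGAB* array. The difference was 0.18 with a 95% interval of -0.19 to 0.55 (an unadjusted p of 0.297 by limma, and 0.164 with the replicate number as a block). Besides *DUSP1* and *DUSP10* it was the only member higher in all 3 pairs, as were 15.4% of all probe sets, and no member was lower in all 3, as were 14.8%.

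*DUSP4*, the phosphatase MKP-2 and a known ERK-induced gene, was nearly level, at 9.39, 9.38 and 9.29 against 9.43, 9.40 and 9.17. Both arrays of replicate 3 were the lowest of their groups, and the difference was -0.021 with a 95% interval of -0.35 to 0.31. *DUSP2*, first known as PAC-1 from activated lymphocytes, was at 5.77, 6.02 and 5.89 against 6.23, 5.68 and 6.004. The *circAAGAB* arrays of *DUSP2* held both the highest and the lowest value of the 6, so the pairs went in both directions (0.45, -0.34 and 0.12), and the difference was 0.076 with an interval of -0.34 to 0.49.

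The cytoplasmic ERK phosphatases showed no difference of the kind seen in *DUSP1*. *DUSP6*, or MKP-3, whose transcript is widely used as a readout of ERK activity, was at 8.91, 9.004 and 8.88 with the empty vector and at 8.90, 9.04 and 8.69 with *circAAGAB*. Replicates 1 and 2 were within 0.03 of each other between the groups and replicate 3 was 0.19 lower with *circAAGAB*, so the difference of -0.055 (95% interval -0.40 to 0.29) came mostly from 1 array. Without that array it was 0.04. *DUSP7*, a close relative of *DUSP6*, was at 7.38, 7.22 and 7.08 against 7.07, 7.33 and 6.79. It was lower in replicates 1 and 3 and higher in replicate 2, and its difference of -0.16 (95% interval -0.58 to 0.25) was the lowest of the 10 genes with all arrays in. It was -0.028 without *circAAGAB* replicate 3. *DUSP9*, or MKP-4, a gene best known from placenta, was at 5.53, 5.67 and 5.23 against 5.78, 5.35 and 5.48, a difference of 0.059 with an interval of -0.36 to 0.48 and groups that overlapped throughout.

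Among the p38/JNK-selective phosphatases, *DUSP10* was the only one whose groups did not overlap. It was at 9.02, 9.04 and 9.11 on the empty vector arrays and at 9.44, 9.34 and 9.46 on the *circAAGAB* arrays, with means of 9.05 ± 0.046 and 9.41 ± 0.061 (SD, n = 3 each). The arrays within each group were closer together than those of any other member when both groups are counted, and the replicate pairs differed by 0.42, 0.31 and 0.35. The difference of 0.36 had a 95% interval of 0.05 to 0.67, an unadjusted p of 0.0279 and an adjusted p of 1.00 by limma, and p = 0.1 by the exact permutation test. The unadjusted p was above 0.05 when 1 array was left out in 4 of 6 cases, at 0.0683, 0.0950 and 0.0602 without empty vector replicates 1, 2 and 3 and at 0.0730 without *circAAGAB* replicate 3 (limma), while the difference stayed between 0.34 and 0.39.

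*DUSP8*, a phosphatase of JNK and p38 known from brain and heart, was at 5.33, 5.16 and 4.88 with the empty vector and at 5.14, 4.90 and 5.04 with *circAAGAB*. Its groups overlapped, and the difference was -0.095 with a 95% interval of -0.48 to 0.29. *DUSP16*, or MKP-7, which holds JNK in check, was at 4.78, 5.01 and 4.95 against 4.67, 5.24 and 4.89. Its *circAAGAB* arrays spanned the whole range of the empty vector arrays, with a difference of 0.016 and an interval of -0.40 to 0.43. The signals of both genes were close to the gauge of 4.65.

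**Figure D2:**
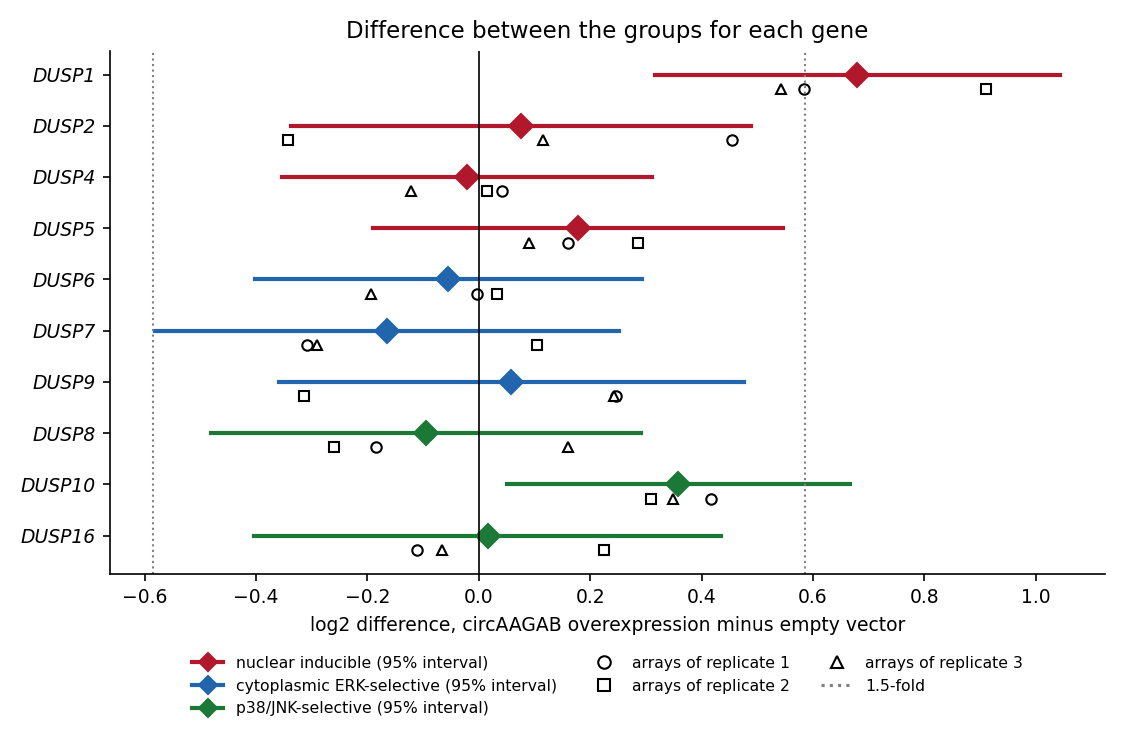
The log2 difference of each gene (diamond) with its 95% interval from limma, coloured by class, and the difference within each replicate number (open symbols); dotted lines mark 1.5-fold. The intervals of *DUSP1* and *DUSP10* lie above 0, and those of the other 8 genes include 0 and end within the 1.5-fold lines.

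For the 8 genes other than *DUSP1* and *DUSP10*, the 95% intervals of the difference all included 0 and all ended short of 1.5-fold in either direction, so smaller differences than that remain possible in each. By the criteria of the study, that is, 1.5-fold or more with p under 0.05 before adjustment, *DUSP1* was the only member called, where 0.214% of all probe sets were called higher and 0.159% lower. Groups that did not overlap were found in 2 members, both higher, where 3.87% of all probe sets were higher and 4.04% lower in this way. With the replicate number as a block, the same 2 genes had an unadjusted p under 0.05 (limma, 0.00176 for *DUSP1* and 0.0167 for *DUSP10*, adjusted p = 0.724 for both), where 6.79% of all probe sets passed, and *DUSP1* alone met the criteria of the study, as did 0.294% of probe sets on the higher side and 0.205% on the lower.

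**Figure D3:**
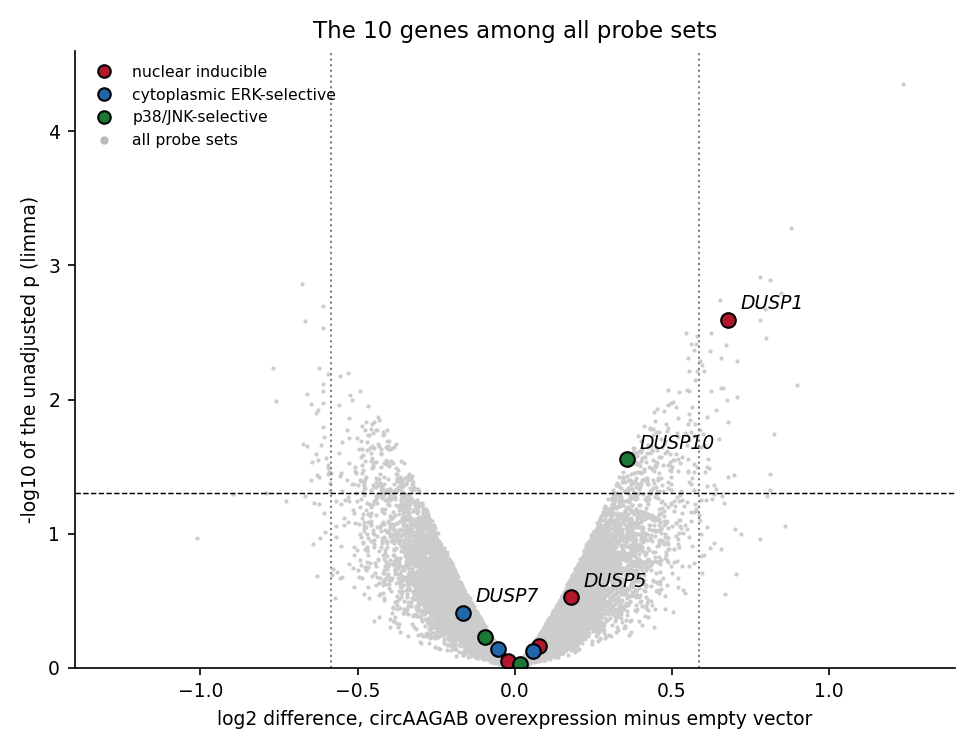
The log2 difference (horizontal axis) and -log10 of the unadjusted p from limma (vertical axis) of the 10 phosphatase genes (coloured by class) among all probe sets (grey); *AAGAB*, at a difference of 3.61, lies outside the axes, the dashed line marks a p of 0.05 and the dotted lines 1.5-fold. *DUSP1* lies past both lines and *DUSP10* past the dashed line only.

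Set side by side, the classes differed less from each other than the members within them. The 4 nuclear inducible genes had a median difference of 0.13 and a range of -0.021 to 0.68, and the 3 p38/JNK-selective genes a median of 0.016 and a range of -0.095 to 0.36. The 3 cytoplasmic genes had a median of -0.055 and a range of -0.16 to 0.059. Leaving out 1 array at a time moved these medians between 0.027 and 0.19 (nuclear, lowest without *circAAGAB* replicate 1), between -0.031 and 0.15 (p38/JNK-selective) and between -0.13 and 0.039 (cytoplasmic, above 0 without *circAAGAB* replicate 3). In each of the first 2 classes 1 gene accounted for most of the class mean, *DUSP1* and *DUSP10*. The median of the other 8 members was -0.0028, close to that of all probe sets. This closeness is partly built in, since the 2 genes set aside were those of largest difference. By the ranges above, members of 1 class did not move as a block, and the class medians are descriptions with no test.

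Ratios within an array remove what all genes of that array share; only their shift between the groups can be read, since signals of different probe sets have no common scale. The 4 pairs of genes were chosen after their values were seen. The log2 ratio of *DUSP1* to *DUSP6* was -0.58, -0.95 and -0.77 on the empty vector arrays and 0.01, -0.07 and -0.03 on the *circAAGAB* arrays, a shift of 0.73 with no overlap. That of *DUSP10* to *DUSP6* shifted by 0.41, also with no overlap, and the exact permutation test gave p = 0.1, the smallest possible, for both. *DUSP10* to *DUSP16* shifted by 0.34 with groups that overlapped (exact permutation p = 0.3). *DUSP1* to *DUSP10* shifted by 0.32 with groups that overlapped (exact permutation p = 0.2), and within the replicate pairs it shifted by 0.17, 0.60 and 0.19. Adjusted over the 4 ratios, the exact permutation p ran from 0.2 to 0.3, which does not correct for the choice of these pairs.

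The spread over the 6 arrays went with different things in different members. In *DUSP1* the group held 87.8% of the variance and the replicate number 6.99%, and in *DUSP10* the group held 94.3% and the replicate number 4.26%. In *DUSP4*, *DUSP5*, *DUSP6*, *DUSP7*, *DUSP8* and *DUSP16* the replicate number held the largest share, from 56.9% in *DUSP8* to 82.9% in *DUSP16*. In *DUSP2* and *DUSP9* most of the variance, 83.4% and 52.3%, went with neither. These shares describe 6 arrays and do not count the replicate number's larger degrees of freedom.

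**Figure D4:**
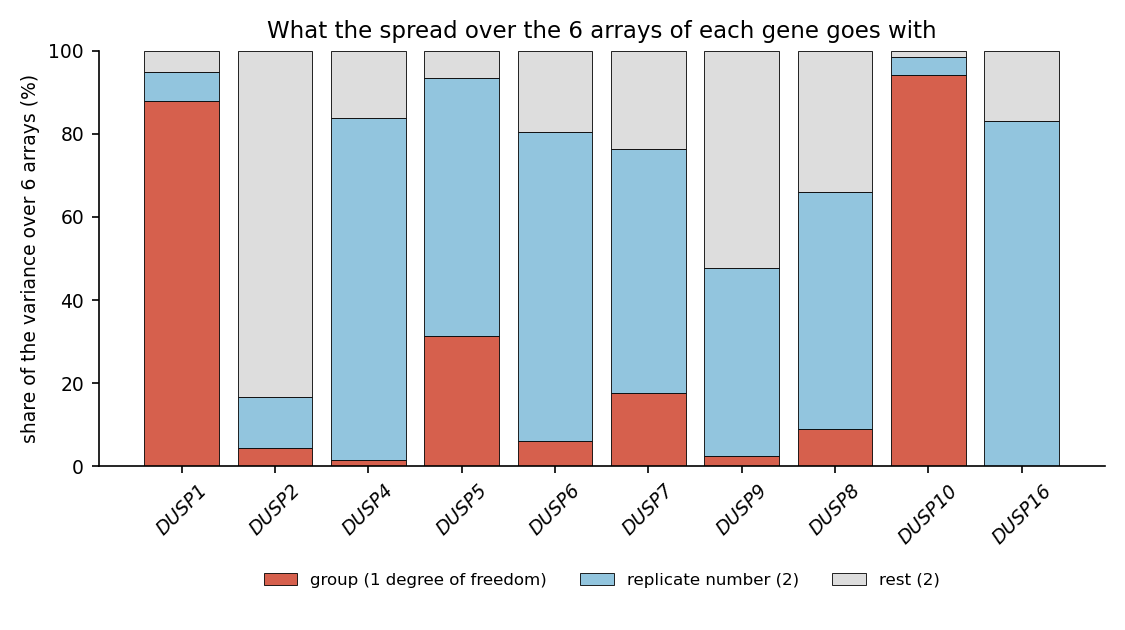
The share of each gene's variance over the 6 arrays (%) that goes with the group (red, 1 degree of freedom), the replicate number (blue, 2) and the rest (grey, 2). Only the bars of *DUSP1* and *DUSP10* are mostly red.

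The genes whose profile over the 6 arrays was most like that of *DUSP1*, among 12458 genes above the gauge, were *TMEM237*, *PPIL1*, *CHCHD1*, *RPP30* and *HSBP1L1* (Pearson r of 0.984 to 0.991). This likeness is over 6 arrays of 2 groups, in which arrays of the same replicate number resembled each other, and is a description only. *PPIL1* differed by 0.10 and *TMEM237* by 0.26, so a high r did not mean a difference as large as that of *DUSP1*. *ATF3* ranked 93rd (r of 0.913), *EGR1* 148th (0.885) and *DUSP10* 205th (0.857). The genes most like *DUSP6* were *TRUB2*, *CDK16*, *ITPKA*, *TP53I13* and *DNAJB2* (0.963 to 0.977), with *DUSP7* 122nd (0.846) and *DUSP4* 125th (0.844). The profile of *DUSP6* had r of -0.029 with *DUSP1* and -0.42 with *DUSP10*.

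The kinases that the phosphatases act on were nearly level. Of 10 MAP kinases listed 8 were measured, 4 higher and 4 lower with a median of 0.0044, and the smallest p were those of the JNK gene *MAPK8* at 0.18, the p38 gamma gene *MAPK12* at -0.19 and the ERK5 gene *MAPK7* at 0.07. The 5 MAP kinase kinases measured had a median of 0.041, with *MAP2K6*, which activates p38, at -0.17, *MAP2K3*, which does the same, at 0.049 and *MAP2K5*, the activator of ERK5, at 0.043, while *MAP2K4* and *MAP2K7* were not analysed here. None of these genes had an unadjusted p under 0.05 (limma).

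Of 10 kinases downstream of MAP kinases, 8 were lower and 2 higher, with a median of -0.11. The lowest was *RPS6KA1*, which encodes the ERK-activated kinase RSK1, at 7.30, 6.70 and 6.59 against 6.36, 6.53 and 6.26. Its groups did not overlap, but the empty vector array of replicate 1 stood well above the other two, and the difference was -0.48 (an unadjusted p of 0.0516 by limma, 0.0321 with the replicate block). *RPS6KA2*, with a mean signal below the gauge of background, was at -0.27 and *MKNK1*, a kinase of the cap-binding protein eIF4E, at -0.18. Among 8 other phosphatases of MAP kinases the median was -0.026, with the tyrosine phosphatase gene *PTPRR* at 0.39 (an unadjusted p of 0.0834 by limma), *PPP2CB* at 0.12 and *PPM1D* at -0.11. The 16 atypical dual-specificity phosphatases measured of 18 had a median of -0.049, with *DUSP19* at 0.41, *STYXL2* at -0.27 and *DUSP29* at -0.24, all 3 below the gauge of background. No gene of these 3 lists had an unadjusted p under 0.05 by limma without the block.

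Inhibitors of ERK signaling outside the phosphatase family gave 1 gene past an unadjusted p of 0.05. *SPRY2*, which encodes the receptor tyrosine kinase antagonist Sprouty 2, was at 7.91, 7.95 and 8.05 against 8.24, 8.50 and 8.33, with no overlap, a difference of 0.39 and an unadjusted p of 0.0262 by limma. The list of 11 measured of 12 had a median of 0.0090, with *NF1*, a RAS GTPase-activating protein, at 0.34 and *SPRED3* at -0.24. The 9 genes taken as ERK output had a median of 0.027 and none with an unadjusted p under 0.05 (limma), with cyclin D1 (*CCND1*) at -0.21, *FOSL1* at 0.15 and *PHLDA1* at 0.14. In *FOSL1* and *PHLDA1* every *circAAGAB* array was above every empty vector array, as in 3.87% of all probe sets.

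Immediate early transcription factors, which are induced by the same stimuli as *DUSP1*, were mostly higher. Of 21 measured of 23, 20 were higher and 1 lower with a median of 0.29, against -0.0017 for all probe sets, and 7 had an unadjusted p under 0.05, all higher (limma), where 1.19% of all probe sets did. *EGR1* had the largest difference, from 7.48, 7.42 and 7.35 to 8.48, 8.59 and 8.87. *ATF3*, a factor of the CREB and ATF family, went from 6.66, 6.45 and 6.64 to 7.25, 7.60 and 7.54, and the Krüppel-like factor gene *KLF10* had a difference of 0.54. The other 4 with an unadjusted p under 0.05, *JUN*, *FOS*, *NR4A1* and *KLF4*, had differences of 0.38 to 0.49. *EGR1* and *ATF3* were picked by the study from these arrays, so this list is not independent evidence of its direction. Of the 5 glucocorticoid-induced genes measured of 7, a list included because glucocorticoids also induce *DUSP1*, the kinase gene *SGK1* was at 0.53 (an unadjusted p of 0.0297 by limma), *ZFP36* at 0.28 and *ZBTB16* at 0.22, and the median was 0.22 with 3 higher and 2 lower.

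**Figure D5:**
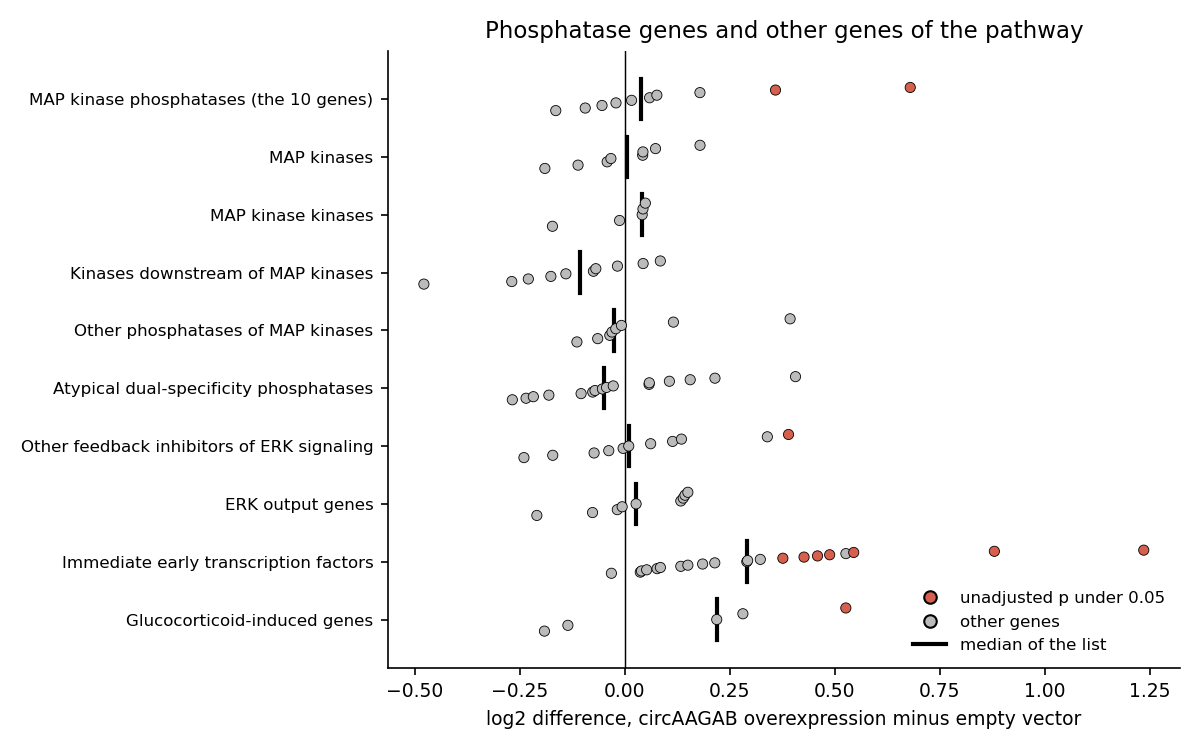
The log2 difference of each measured gene of the phosphatase family and of 9 other lists, with the median of each list as a black bar and genes with an unadjusted p under 0.05 (limma) in red. The points of the immediate early list lie to the right of 0 with 1 exception, while the points of the kinase lists lie on both sides of it.

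Over the 9 lists together, 91 of 102 genes were measured, and 9 of them had an unadjusted p under 0.05 and were higher while 0 were lower, where 1.19% of all probe sets were higher and 0.988% lower (limma). Of these 9, 7 were in the immediate early list, including *EGR1* and *ATF3*, which the study picked from these arrays. *SPRY2* and *SGK1* were the others, so the pooled count came mostly from 1 list. None of the 91 passed after adjustment. With the replicate number as a block 14 were higher and 1 lower, where the block gave 3.78% and 3.02% of all probe sets. *FOSL1* and *MYC* stand in 2 lists and are counted once in these totals. Of 21 markers of cell types measured, 1 had an unadjusted p under 0.05, the receptor tyrosine kinase gene *AXL* at -0.33 (an unadjusted p of 0.0425 by limma). The mean over the genes of the blood cell list was 4.42 to 4.74 on the empty vector arrays and 4.48 to 5.01 on the *circAAGAB* arrays, and that of the fibroblast list 5.24 to 5.35 and 4.99 to 5.55, so both overlapped between the groups.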

How the data were processed

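Gene expression was measured on 6 Clariom S arrays, 3 per group, and samples were grouped by their titles. The values are on the log2 scale, as the authors deposited them after robust multichip averaging (RMA), with 1 value for each probe set on each array, and were used unchanged. The program that ran RMA is not given in the sources used here, nor is its annotation. Since RMA makes array distributions alike, a shift of the whole transcriptome would not show. Of 21448 probe sets 17709 carried 1 symbol, 0 several and 3739 none; the probe set of highest mean stands for a gene. Arrays give no read depth, and their number limits the precision.

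The fit was made in R 4.3.3 with limma 3.58.1 (lmFit, eBayes; two-sided, without covariates or filters, Benjamini-Hochberg over all probe sets), with intervals at 95%, and single values with the exact permutation test. The procedure was tested on simulated data. Named were every member, *AAGAB*, up to 3 genes of smallest p in each list and the 5 genes most like *DUSP1* and *DUSP6* by Pearson r. The listed markers are named beside their counts, and 4 more immediate early genes and *MYC* were chosen after their values were seen. The members and lists were chosen with earlier results of these data known. Deviations from the group means correlated between arrays of the same replicate number (0.603 in replicate 1, 0.189 in replicate 2 and 0.549 in replicate 3). Each was over 0.1, the limit set for this, so the replicate number served as a block in an alternative fit. The labels do not state that arrays of the same number were handled together, and correlations between arrays of different numbers are not given. The numbers therefore may or may not mark true pairs, and a replicate pair here means only arrays of the same number. Other alternatives were leaving out arrays, quantile normalization, only probe sets above the gauge, an intensity trend, the methods' Student test, all probe sets of a gene and median-centred arrays. Promoter sequences are from RefSeq (GRCh38.p14).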

Additional observations from a re-analysis of the deposited data

How the results depend on the processing

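Judged by the adjusted p of 0.05 for each gene, by a factor of 1.5 for counts and by the spread between replicates for class medians, 277 values under the alternatives stayed within these bounds, 21 moved, and 10 differences of single members, all near 0, changed direction. These counts say little about stability. No member was near an adjusted p of 0.05, so in practice only a change of sign could take a member out of its bound. The block, the gauge filter, the intensity trend, the Student test and the use of all probe sets left member differences and class medians unchanged. The replicate block changed no call of a member; it gave 14 pathway genes higher and 1 lower, against 9 and 0. Without both arrays of replicate number 1, *DUSP2* was at -0.11 and *DUSP9* at -0.036, the p38/JNK-selective median was 0.079 and 1 pathway gene was lower; 1 was also lower with only probe sets above the gauge and with an intensity trend. With any 1 array left out, the difference ran from -0.053 to 0.22 in *DUSP2*, -0.070 to 0.060 in *DUSP4*, -0.13 to 0.039 in *DUSP6*, -0.22 to 0.0087 in *DUSP8*, -0.063 to 0.15 in *DUSP9* and -0.14 to 0.15 in *DUSP16*, and from -0.30 to -0.028 in *DUSP7* and 0.11 to 0.28 in *DUSP5*, which kept their sign. The p38/JNK-selective median ran from -0.031 to 0.15, the nuclear from 0.027 to 0.19 and the cytoplasmic from -0.13 to 0.039. Members with an unadjusted p under 0.05 (limma) were 1 to 2, all higher; 1 without any of the 3 empty vector arrays or *circAAGAB* replicate 3. Members with no overlap were 2 to 4 higher, 4 without *circAAGAB* replicate 3, and 0 to 1 lower, 1 without empty vector replicate 3 or *circAAGAB* replicate 2. Groups with fewer arrays separate more easily, so a higher count here is not a gain. The shares of all probe sets with 1 array left out are not given for this or the other counts. Pathway genes were 5 to 11 higher, 5 without empty vector replicate 1 or 3 or *circAAGAB* replicate 2, and 0 to 1 lower. The cause was not tested. No setting brought a member past an adjusted p of 0.05. The signals of *DUSP8* and *DUSP16* lay near the background gauge, which limits what can be read from them.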
